A study of Mus musculus with 8 samples.

Results

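Cathepsins are the proteases of the lysosome, and the transcripts of 10 of their genes were followed in neural retinas of Mfp2-/- and control mice at 3 weeks. The members were the rows with the symbols Ctsa, Ctsb, Ctsc, Ctsd, Ctsf, Ctsh, Ctsl, Ctso, Ctss and Ctsz, which makes 10 of the 43472 gene symbols in the count tables. All 10 were among the 12516 genes that passed a filter on low counts, and the smallest count of any member in any library was 18. The study deals with MFP2, or multifunctional protein 2, an enzyme of peroxisomal β-oxidation encoded by Hsd17b4, and compared retinas that lack it with control retinas. There were 4 libraries of Mfp2-/- mice and 4 of control mice, all C57BL/6J, taken at 3 weeks of age, which the labels also give as postnatal day 21. Of the controls, 3 were Mfp2+/+ and 1, control replicate 2, was Mfp2+/-. Mfp2 was inactivated constitutively in the whole body, so the retina was one of many affected tissues, and each library held RNA of both retinas of 1 mouse. The p-values measure the spread between these mice only.

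Cathepsins are made as inactive proenzymes, carried to the lysosome largely by mannose 6-phosphate receptors and activated there at acid pH. Most belong to the papain family of cysteine proteases, whereas cathepsin D is an aspartic protease and cathepsin A a serine carboxypeptidase. In the eye they are best known for the breakdown of shed photoreceptor outer segments in the retinal pigment epithelium (RPE) and for their abundance in microglia and macrophages.

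The libraries held between 1895485 and 2826553 gene counts in Mfp2-/- retinas, and between 2340974 and 3226187 in control retinas. Hsd17b4, the targeted gene, had 1, 0, 1 and 0 counts in Mfp2-/- libraries, against 47, 20, 78 and 37 counts in control libraries, so the labels held. Mfp2-/- replicates 2 and 3 stood apart in that 10.8% and 15.7% of their reads were assigned to no gene, against a range of 22.6% to 29.9% in the other 6 libraries. The main calls, sums and medians that move without them are also given without them. The rod markers, genes of the most numerous cells of the neural retina, summed to between 1399 and 2017 CPM (counts relative to the library total, scaled by the trimmed mean of M-values, TMM) in Mfp2-/- libraries, against 32480 to 35720 CPM in control libraries.

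Of the 10 cathepsin genes, 7 were higher in Mfp2-/- retinas (edgeR quasi-likelihood test, Benjamini-Hochberg adjusted p under 0.05), 0 were lower and 3 did not pass the test. Among all 12516 genes tested, 13.8% were called higher and 13.2% lower. At an unadjusted p under 0.05, 7 members were higher and 1 was lower, beside 2563 higher and 2436 lower among all 12516 genes. DESeq2 and limma-voom each called the members 7 higher and 0 lower. The median log2 fold change was 0.87 over the 10 members and -0.0039 over all genes tested. The median over the members was 0.68 without Mfp2-/- replicates 2 and 3. In 7 members all 4 Mfp2-/- libraries lay above all 4 control libraries, a pattern that 15.1% of all genes showed, and in 0 members all 4 lay below, which 15.8% of all genes showed. The genes that rose ranged from Ctss, a 7.03-fold change, to Ctsa, a 1.46-fold change.

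**Figure D1:**
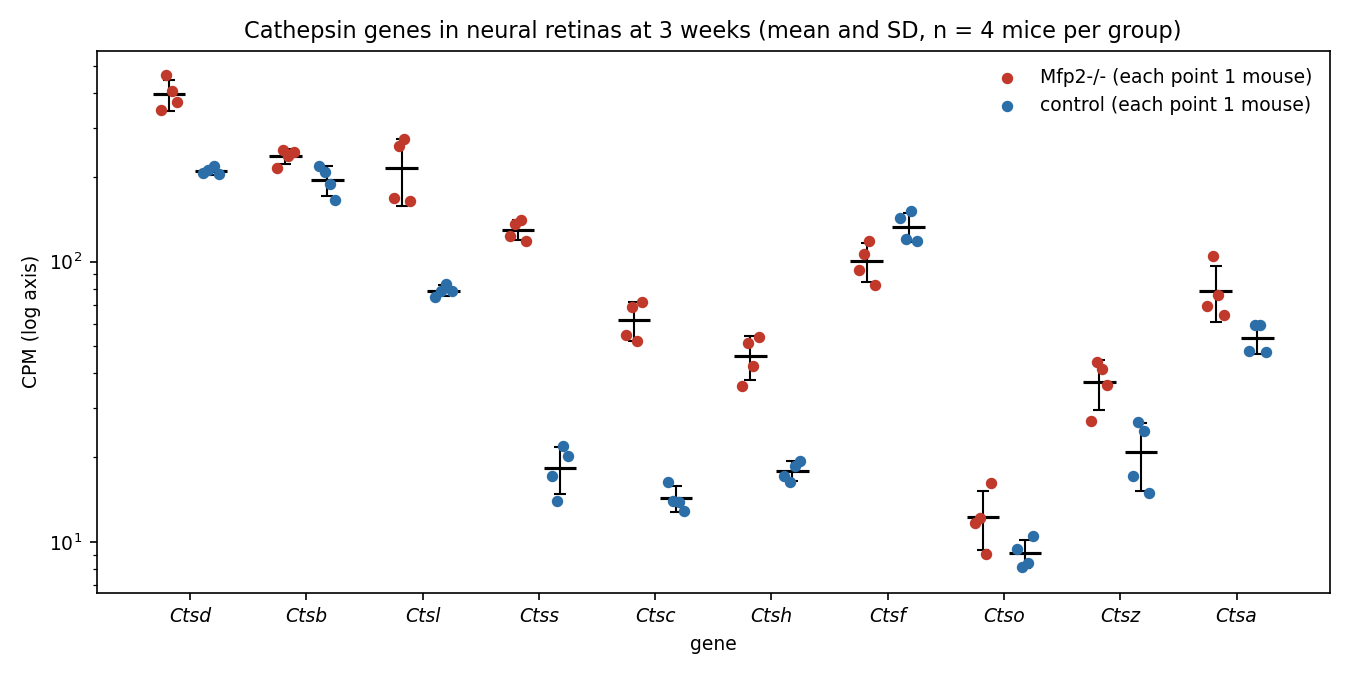
CPM on a log axis of each of the 10 cathepsin genes, with each point 1 mouse, Mfp2-/- (red) left of control (blue), and bars for the mean and SD (n = 4 per group). The groups are farthest apart in Ctss, at 118 to 141 CPM in Mfp2-/- libraries and 14.02 to 21.9 CPM in control libraries, and overlap in Ctsb, Ctsf and Ctso.

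The 10 genes lie on 7 chromosomes of the mouse genome (GRCm38), and only Ctsc with Ctsd, Ctss with Ctso and Ctsa with Ctsz share a chromosome. Ctsd lies on the minus strand at chr7:142375911-142388038 and Ctsc on the plus strand at chr7:88278085-88310888. Ctss is at chr3:95526786-95556403 and Ctso at chr3:81932601-81956725, both on the plus strand. Ctsa occupies chr2:164832873-164841032 on the plus strand, and Ctsz chr2:174427493-174439039 on the minus strand. The remaining genes are Ctsl at chr13:64359337-64370890 (minus), Ctsb at chr14:63122462-63145923 (plus), Ctsh at chr9:90054152-90076089 (plus) and Ctsf at chr19:4855130-4860918 (plus). Ctsa shares 495 exon bases with Pltp and 324 with Neurl2 on the other strand, Ctsb shares 774 with Fdft1, Ctsz shares 10 with Nelfcd, and Ctsl shares 1742 with the antisense gene Gm47123, which had 0 counts in either group. Whether the counting used strand is not given in the sources used here, so reads in these stretches cannot be told apart. On the same strand, Ctsd shares 808 exon bases with Gm49369 and Ctsl 395 with the pseudogene Gm49230, which also had 0 counts in either group.

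The 250 bases before the transcription start were read from RefSeq (GRCm38) for 8 of the 10 members, in 9 windows since Ctsa has 2, and Ctsb and Ctsh had no entry. Those of Ctsd, the most abundant member, of Ctsa, and of Ctss and Ctsc, which had the largest fold changes, are shown 5′ to 3′ on the strand of the gene. Capitals mark 3 motifs searched on both strands, which are CACGTG, the core of the element bound by the TFEB family of lysosomal regulators, GAGGAAGT, a motif of the myeloid factor PU.1, and GAAA followed, after any 2 bases, by a further GAAA, a motif of interferon regulatory factors.
Ctsd, chr7:142387828-142388077, minus strand: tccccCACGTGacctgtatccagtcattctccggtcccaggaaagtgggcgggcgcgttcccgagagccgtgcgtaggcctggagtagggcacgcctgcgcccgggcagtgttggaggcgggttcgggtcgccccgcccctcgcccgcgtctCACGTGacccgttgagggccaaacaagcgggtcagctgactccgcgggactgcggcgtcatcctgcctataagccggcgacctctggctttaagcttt
Ctsa, second start, chr2:164833523-164833772, plus strand: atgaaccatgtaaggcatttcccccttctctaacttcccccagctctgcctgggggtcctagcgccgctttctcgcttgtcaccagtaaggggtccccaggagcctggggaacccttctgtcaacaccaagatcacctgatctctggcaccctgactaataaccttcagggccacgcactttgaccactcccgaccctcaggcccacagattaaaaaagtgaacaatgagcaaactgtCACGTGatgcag
Ctss, chr3:95526536-95526785, plus strand: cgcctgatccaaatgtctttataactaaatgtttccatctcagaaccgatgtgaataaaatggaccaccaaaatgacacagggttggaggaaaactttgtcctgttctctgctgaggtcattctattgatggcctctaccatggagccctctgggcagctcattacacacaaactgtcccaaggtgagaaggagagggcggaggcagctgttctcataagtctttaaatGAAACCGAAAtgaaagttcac
Ctsc, chr7:88277835-88278084, plus strand: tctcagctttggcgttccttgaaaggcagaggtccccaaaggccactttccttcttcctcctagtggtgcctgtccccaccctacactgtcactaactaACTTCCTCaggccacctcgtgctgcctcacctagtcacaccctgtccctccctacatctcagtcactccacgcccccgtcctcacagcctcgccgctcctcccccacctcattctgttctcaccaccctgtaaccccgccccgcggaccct
The RefSeq starts of Ctsd, Ctsf, Ctsl and the second Ctsa entry lie inside the annotated gene span. Part of the Ctsd and Ctsf windows and all of the Ctsl and second Ctsa windows therefore fall within it. The first Ctsa window, which lies before the gene, held none of these motifs.

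CACGTG was found in the windows of 4 members and in 6.02% of all 32851 windows. The members were Ctsd (245 and 98 bases before the start), Ctsa (12 bases, second start only), Ctsf (79 bases) and Ctsl (236 bases). The sites of Ctsa and Ctsl and the Ctsd site at 98 bases lie inside the annotated genes. CACGTG reads the same on both strands. The longer form TCACGTG, which contains CACGTG, was present in Ctsd and Ctsa and in 3.13% of all windows. GAGGAAGT was present in Ctsc, 151 bases before the start, and in 2.44% of all windows, whereas the paired GAAA motif was present in Ctss, 21 bases before the start, and in 2.98%. The members with CACGTG included 3 genes that rose and Ctsf, which did not pass the test. These matches describe letters and not binding.

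Cathepsin D, the main aspartic protease of the lysosome, was the most abundant member in both groups. Ctsd had 347, 462, 405 and 371 CPM in Mfp2-/- replicates 1 to 4, against 207, 213, 220.3 and 205 CPM in control replicates 1 to 4. Every Mfp2-/- library was above every control library, and the controls lay close together. The means were 396 ± 50.03 CPM in Mfp2-/- and 211 ± 6.9998 CPM in control retinas (SD, n = 4 each), a log2 fold change of 0.91 (SE 0.13, 1.88-fold, 95% interval 1.54 to 2.29, adjusted p = 0.000509). Among all genes tested it was the 215th most abundant in Mfp2-/- retinas and the 764th in control retinas.

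The cysteine endopeptidases cathepsin B and cathepsin L were next in abundance in Mfp2-/- retinas. Ctsl, which encodes a potent endopeptidase of most cells, had 168, 258, 275 and 165 CPM in Mfp2-/- libraries, against 74.6, 78.3, 83.5 and 78.7 CPM in control libraries. The groups did not overlap, and Mfp2-/- replicates 2 and 3 were well above the other Mfp2-/- libraries. The change was 1.46 on the log2 scale (SE 0.19, 2.75-fold, interval 2.06 to 3.66, adjusted p = 0.000261), and it was 1.08 without those libraries, where Ctsl still passed the test.

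Ctsb encodes a protease that also trims the carboxyl ends of its substrates, and it had 216, 251, 238 and 246 CPM in Mfp2-/- libraries, against 220, 209, 189 and 165 CPM in control libraries. Mfp2-/- replicate 1 was below control replicate 1, so the groups overlapped by a single pair. The difference of 0.28 on the log2 scale did not pass the test (SE 0.13, 1.21-fold, interval 0.994 to 1.48, adjusted p = 0.136). It passed where libraries were scaled by total counts alone (0.41, adjusted p = 0.0418). By mean, Ctsb was the second most abundant cathepsin in both groups.

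Cathepsin S, a cysteine endopeptidase that keeps its activity at neutral pH and cleaves the invariant chain of MHC class II in antigen-presenting cells, changed most. Ctss had 124, 137, 141 and 118 CPM in Mfp2-/- libraries, against 17.1, 14.02, 21.9 and 20.2 CPM in control libraries. The 4 Mfp2-/- libraries lay close together and far above all controls. The log2 fold change was 2.81 (SE 0.16, 7.03-fold, interval 5.50 to 8.99, adjusted p = 5.62e-07), from 1360 counts in Mfp2-/- and 204 in control libraries. By fold change Ctss stood at the 99.5th percentile of all genes tested.

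Cathepsin C, or dipeptidyl peptidase I, activates the granule serine proteases of leukocytes by removing a dipeptide. Ctsc had 54.9, 69.1, 52.1 and 72.1 CPM in Mfp2-/- libraries, against 16.4, 14.02, 13.9 and 12.9 CPM in control libraries, with no overlap. The change was 2.11 on the log2 scale (SE 0.16, 4.32-fold, interval 3.36 to 5.56, adjusted p = 5.70e-06). Of the 10 granule serine proteases listed, 0 passed the filter and 5 had no count in any library. The most counts were those of Prtn3, named after its values were seen, with 32 in Mfp2-/- and 11 in control libraries.

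Cathepsin H, an aminopeptidase, and cathepsin Z, a carboxypeptidase also called cathepsin X, rose as well. Ctsh had 36.1, 51.3, 42.4 and 54.1 CPM in Mfp2-/- libraries, against 17.1, 16.3, 18.7 and 19.5 CPM in control libraries. The lowest Mfp2-/- library was well above the highest control, and the log2 fold change was 1.35 (SE 0.17, 2.55-fold, interval 1.97 to 3.30, adjusted p = 0.000209). Ctsz had 26.9, 43.7, 41.3 and 36.4 CPM in Mfp2-/- libraries, against 17.1, 26.7, 24.8 and 14.98 CPM in control libraries. Here the groups were apart only narrowly, since Mfp2-/- replicate 1 was just above control replicate 2, the Mfp2+/- mouse. The change of 0.83 on the log2 scale (SE 0.23, 1.77-fold, interval 1.26 to 2.50, adjusted p = 0.0203) no longer passed without Mfp2-/- replicates 2 and 3 (0.60, adjusted p = 0.0845). It was also lost without Mfp2-/- replicate 3, control replicate 1 or control replicate 4, with adjusted p-values between 0.0587 and 0.0616.

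Cathepsin A, the serine carboxypeptidase that also protects neuraminidase and β-galactosidase in a complex, showed the smallest change that passed. Ctsa had 69.4, 104.7, 76.3 and 64.4 CPM in Mfp2-/- libraries, against 48.0, 59.3, 59.3 and 47.7 CPM in control libraries. The groups did not overlap, with Mfp2-/- replicate 2 above the rest. Pltp, the overlapping gene on the other strand, had 122 counts in Mfp2-/- and 217 in control libraries, beside Ctsa with 804 in Mfp2-/- and 584 in control libraries. The change was 0.55 on the log2 scale (SE 0.17, 1.46-fold, interval 1.12 to 1.91, adjusted p = 0.0379), and 0.32 without Mfp2-/- replicates 2 and 3, where it did not pass (adjusted p = 0.143). Leaving out Mfp2-/- replicate 2, Mfp2-/- replicate 3 or any one control also ended the call, with adjusted p-values between 0.0573 and 0.104. Of its complex, neither Glb1 (11.8 ± 3.24 CPM in Mfp2-/- and 8.48 ± 1.52 CPM in control, log2 fold change 0.45, adjusted p = 0.219) nor Neu1 (60.5 ± 9.08 CPM in Mfp2-/- and 53.9 ± 7.35 CPM in control, log2 fold change 0.16, adjusted p = 0.452) passed the test.

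Cathepsin F, a cysteine endopeptidase whose loss in humans causes a lysosomal storage disease of neurons, was the only member with a lower mean in Mfp2-/- retinas. Ctsf had 93.4, 107, 119.0 and 82.4 CPM in Mfp2-/- libraries, against 143, 121, 151 and 119 CPM in control libraries. Mfp2-/- replicate 3 and control replicate 4 were level, and the other Mfp2-/- libraries were below all controls. The difference of -0.41 on the log2 scale (SE 0.15, 0.752-fold, interval 0.597 to 0.947) did not pass after adjustment (adjusted p = 0.0657 by edgeR's quasi-likelihood test). Without Mfp2-/- replicates 2 and 3 it was -0.61 and passed (adjusted p = 0.00614).

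Ctso encodes cathepsin O, one of the least studied papain-like proteases, and it was the least abundant member. It had 11.7, 12.2, 9.08 and 16.2 CPM in Mfp2-/- libraries, against 9.46, 8.14, 8.39 and 10.5 CPM in control libraries. The groups overlapped through Mfp2-/- replicate 3, and the difference of 0.42 on the log2 scale did not pass the test (SE 0.23, 1.34-fold, interval 0.937 to 1.92, adjusted p = 0.203).

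**Figure D2:**
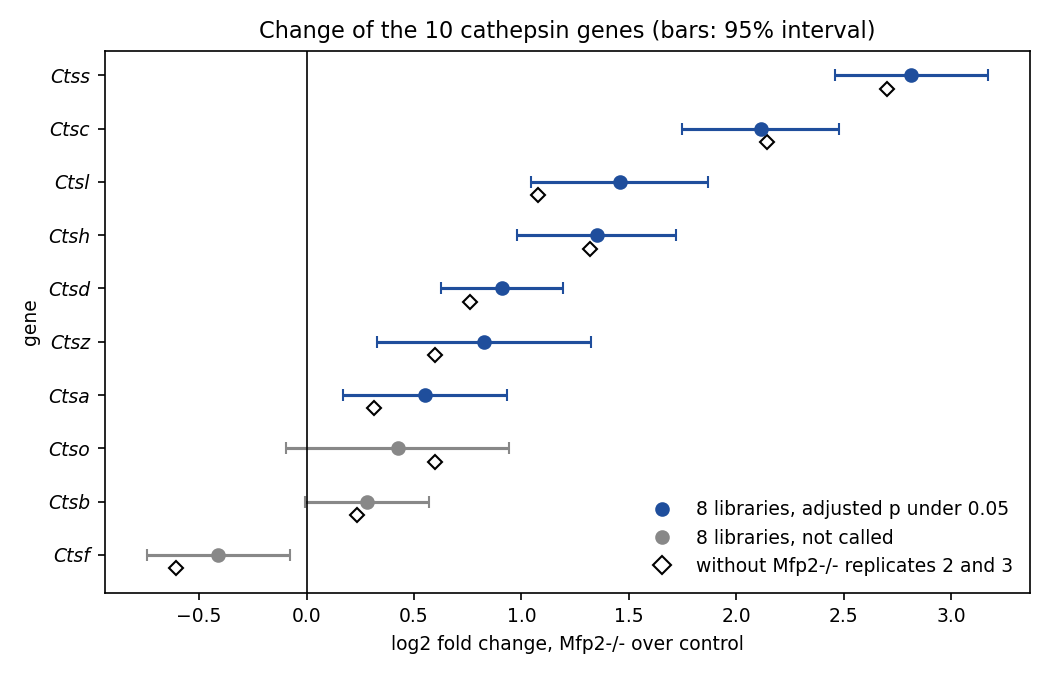
Log2 fold change, Mfp2-/- over control, of each cathepsin gene with its 95% interval (edgeR, 8 libraries), blue where the adjusted p was under 0.05 and grey where not, and open diamonds for the value without Mfp2-/- replicates 2 and 3. Values run from 2.81 for Ctss to -0.41 for Ctsf, and the diamonds keep the sign of all 10 genes.

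In all, 5 of the 10 members, Ctss, Ctsc, Ctsl, Ctsh and Ctsd, passed the test under each of the 18 alternative settings, and without Mfp2-/- replicates 2 and 3 the members counted 5 higher and 1 lower. Within the Mfp2-/- group, replicate 2 was highest in 4 members, replicates 3 and 4 in 3 each and replicate 1 in 0. The Mfp2+/- library was within the range of the Mfp2+/+ libraries in 6 members, below it in Ctsh, Ctso and Ctss and above it in Ctsz.

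The members also shifted relative to each other. With 3′-end sequencing each transcript gives reads at its end, so that CPM values of different genes were set side by side without division by length. Together the 10 genes summed to 1148, 1496, 1399 and 1226 CPM in Mfp2-/- libraries, against 769, 760.0, 791 and 694 CPM in control libraries, with no overlap. The mean sum was 1317 ± 159 CPM in Mfp2-/- and 753 ± 42.0 CPM in control retinas (SD, n = 4 each), a ratio of 1.75, and the ratio was 1.62 without Ctss. Without Mfp2-/- replicates 2 and 3 the mean sum was 1187 CPM in Mfp2-/- retinas and the ratio 1.58, still with no overlap. Of the net rise in summed CPM, in which Ctsf counted as -5.85%, Ctsd accounted for 32.9%, Ctsl for 24.4% and Ctss for 19.8%.

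As a share of the summed CPM, Ctss made up 9.91% ± 0.703 in Mfp2-/- and 2.44% ± 0.495 in control retinas (SD, n = 4 each). Ctsl made up 16.3% ± 2.75 in Mfp2-/- and 10.5% ± 0.684 in control retinas, and both shares were higher in all 4 Mfp2-/- libraries than in any control. The shares of Ctsb and Ctsf were lower in all 4 Mfp2-/- libraries. Ctsb made up 18.2% ± 1.57 in Mfp2-/- and 26.0% ± 2.46 in control retinas, and Ctsf 7.62% ± 0.836 in Mfp2-/- and 17.7% ± 1.45 in control retinas. That of Ctsd overlapped between the groups, at 30.1% ± 0.813 in Mfp2-/- and 28.1% ± 1.10 in control retinas. In Mfp2-/- replicates 1 and 4 alone the shares averaged 10.2% for Ctss, 14.1% for Ctsl, 19.5% for Ctsb and 7.43% for Ctsf, each on the same side of all controls, and that of Ctsd, at 30.3%, then no longer overlapped with the controls.

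**Figure D3:**
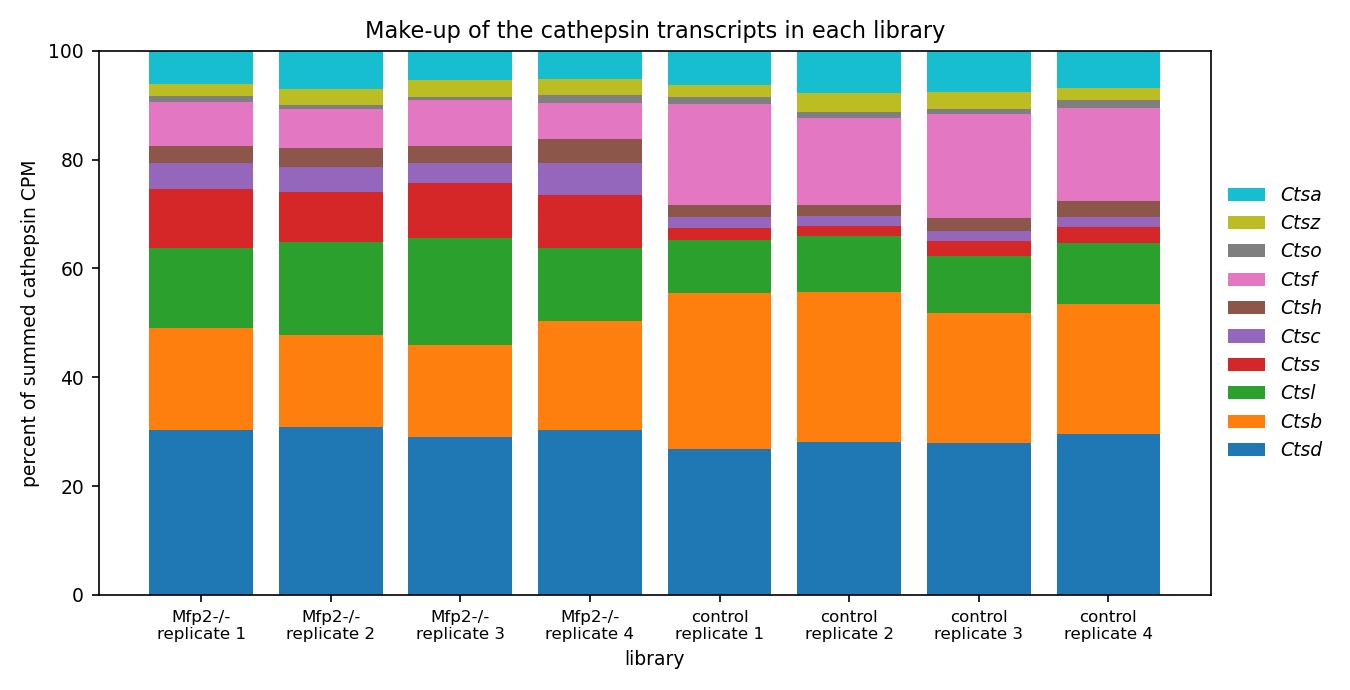
Percent of the summed cathepsin CPM taken by each of the 10 genes in each library, Mfp2-/- replicates 1 to 4 left of control replicates 1 to 4. Ctss takes 9.14% to 10.8% in Mfp2-/- libraries and 1.85% to 2.91% in control libraries, while Ctsf takes 6.72% to 8.50% in Mfp2-/- libraries and 15.9% to 19.1% in control libraries.

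By level, the order in Mfp2-/- retinas was Ctsd, Ctsb, Ctsl, Ctss, Ctsf, Ctsa, Ctsc, Ctsh, Ctsz and Ctso, and neighbours differed beyond their range only between Ctsd and Ctsb, between Ctsl and Ctss and between Ctsz and Ctso. In control retinas the order was Ctsd, Ctsb, Ctsf, Ctsl, Ctsa, Ctsz, Ctss, Ctsh, Ctsc and Ctso. There, Ctsd and Ctsb overlapped, as did the run from Ctsz to Ctsc, and the other neighbours were apart. Ctss was the 7th most abundant member in control and the 4th in Mfp2-/- retinas. The most abundant member exceeded the least by 32.3-fold in Mfp2-/- and 23.2-fold in control retinas.

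Of the genes whose log2 CPM followed each of the most abundant members most closely over the 8 libraries, measured by the root mean square difference after centring, Vat1l (0.0603), Fez1 (0.0625) and Hsd17b10 (0.0631) were nearest to Ctsd. Pop1 (0.0623), Sparcl1 (0.0657) and Samd10 (0.0724) were nearest to Ctsb, and Pdgfra (0.0946), Scd3 (0.129) and Kcng4 (0.144) to Ctsl. For Ctss the nearest were Bcl3 (0.160), B2m (0.199) and Aknaos (0.221), so no gene followed Ctss as closely as these did the other 3 members. Among the members themselves Ctsa and Ctsd were most alike (0.224) and Ctsf and Ctss least (1.61). All these distances come from the same 8 libraries and include the difference between the groups.

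The list of 13 other cathepsin genes of the mouse holds Ctsk, Ctse, Ctsw, Ctsg and placental and testis genes. It gave 0 genes that passed the filter, and 10 had no count in any library. Among these was Ctsg, which is also in the list of granule serine proteases. Ctsk, the collagenase of osteoclasts, had 15 counts in Mfp2-/- and 15 in control libraries, Ctsw had 3 in Mfp2-/- and 3 in control libraries, and Ctse had 0 in Mfp2-/- and 2 in control libraries. The 10 members were thus the cathepsins with usable counts in these libraries.

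Of 19 cathepsin inhibitors, 3 passed the filter, and 1 rose and 0 fell, as also by DESeq2 and limma-voom and at an unadjusted p under 0.05. Without Mfp2-/- replicates 2 and 3, 2 rose, since Ctla2a then passed. Cstb, which encodes the cytosolic inhibitor cystatin B, had 79.6, 111, 86.1 and 58.1 CPM in Mfp2-/- libraries, against 30.9, 39.8, 57.7 and 43.9 CPM in control libraries, with the lowest Mfp2-/- library just above the highest control (log2 fold change 0.95, SE 0.23, adjusted p = 0.0113). Cst3, which encodes the secreted cystatin C, averaged 342 ± 54.5 CPM in Mfp2-/- and 360.2 ± 31.9 CPM in control retinas (SD, n = 4 each) and did not pass (-0.08, adjusted p = 0.727). Ctla2a, an inhibitor of cathepsin L-like proteases in the mouse, had 10.8 ± 4.33 CPM in Mfp2-/- and 7.34 ± 2.11 CPM in control retinas (0.57, adjusted p = 0.237), and differed by 0.99 without Mfp2-/- replicates 2 and 3 (adjusted p = 0.0275). The summed CPM of Cst3 and Cstb, divided by that of the 8 cysteine cathepsins, was 0.503 ± 0.0371 in Mfp2-/- and 0.8291 ± 0.0935 in control retinas and did not overlap, and it was 0.481 in Mfp2-/- replicates 1 and 4 alone. Cst7, which encodes the endolysosomal inhibitor cystatin F and was named after its values were seen, had 5, 1, 4 and 4 counts in Mfp2-/- libraries, against 0 in each control library.

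Of 16 genes for sorting and maturation, 3 rose and 0 fell, a share near the 13.8% of all genes called higher and thus no result about the list, with a median log2 fold change of 0.11. There were 2 that rose without Mfp2-/- replicates 2 and 3, where Igf2r did not pass and the median was 0.14. DESeq2 and limma-voom gave the same counts, and at an unadjusted p under 0.05 there were 5 and 0. Lrp1, an endocytic receptor, averaged 71.3 ± 6.63 CPM in Mfp2-/- and 46.0 ± 5.81 CPM in control retinas (0.63, adjusted p = 0.00643), and Sorl1, a sorting receptor, 96.5 ± 7.67 CPM in Mfp2-/- and 62.6 ± 9.41 CPM in control retinas (0.62, adjusted p = 0.00816). Igf2r, the large mannose 6-phosphate receptor, rose by 0.63 (adjusted p = 0.0264). For Gga2, an adaptor of these receptors, the difference was 0.66 (adjusted p = 0.0838). M6pr, the small receptor, and Lgmn, the legumain that matures several cathepsins, are named after their values were seen and differed by -0.08 (adjusted p = 0.805) and 0.05 (adjusted p = 0.856) on the log2 scale.

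Of 31 other lysosomal hydrolases, 29 passed the filter, of which 12 rose and 1 fell, beside 13.8% of all genes called higher and 13.2% called lower. The median log2 fold change of these hydrolases was 0.56. Without Mfp2-/- replicates 2 and 3 the counts were 8 and 1, and the median was 0.40. Aga, aspartylglucosaminidase, rose by 1.04 on the log2 scale (adjusted p = 0.00138), Psap, the precursor of the saposins, by 0.70 (adjusted p = 0.00211) and Fuca1, a fucosidase, by 0.74 (adjusted p = 0.00316). The gene that fell was Smpd1, acid sphingomyelinase, at 98.2 ± 21.8 CPM in Mfp2-/- and 142 ± 7.45 CPM in control retinas (-0.54, adjusted p = 0.0315). It lost the call with upper-quartile factors, with total counts alone and without any 1 library other than Mfp2-/- replicate 2. Of the 4 genes of the TFEB family, which regulates lysosomal genes through CACGTG elements, 3 were tested and 0 passed, by edgeR at an adjusted or unadjusted p under 0.05, by DESeq2 or by limma-voom. They were Tfe3 (0.29, adjusted p = 0.153), Tfeb (0.61, adjusted p = 0.302) and Mitf (0.28, adjusted p = 0.639).

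**Figure D4:**
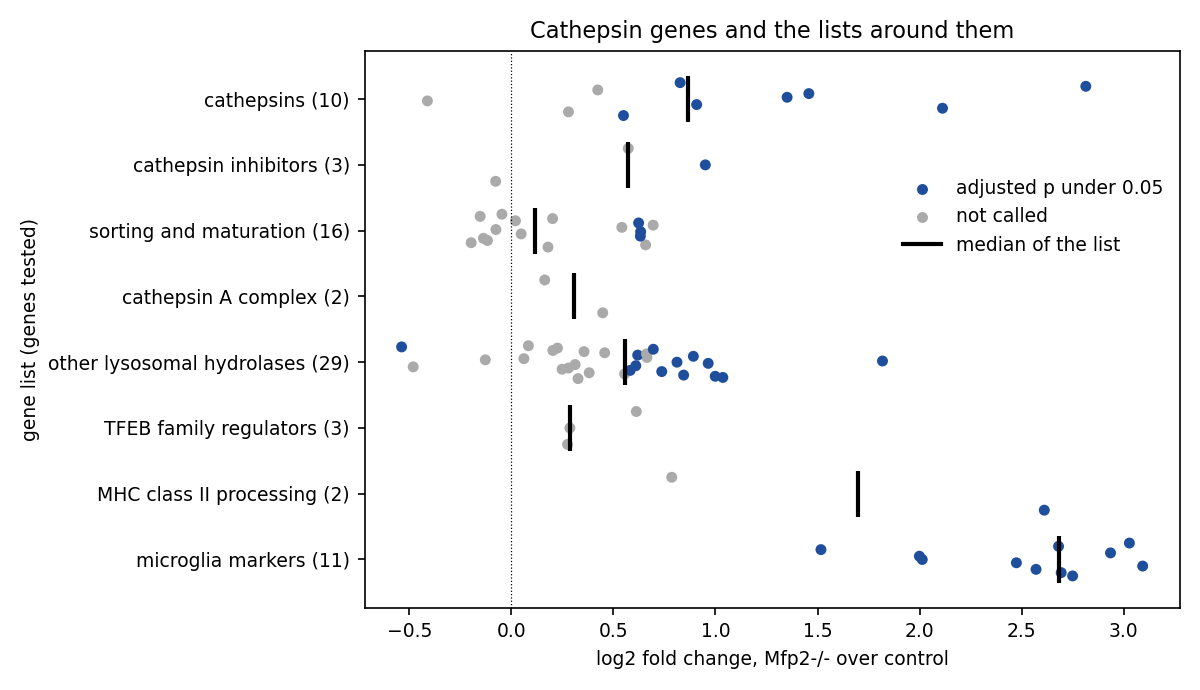
Log2 fold change, Mfp2-/- over control, of the tested genes of each list (number in brackets), blue where the adjusted p was under 0.05 and grey where not, with the median of each list as a bar. The medians are 0.87 for the cathepsins, 0.56 for the other lysosomal hydrolases, 0.11 for sorting and maturation and 2.68 for the microglia markers.

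MHC class II processing, in which Ctss acts, had 2 of 10 genes tested, of which 1 rose and 0 fell by edgeR, DESeq2 and limma-voom, and 2 rose and 0 fell at an unadjusted p under 0.05. Leaving out Mfp2-/- replicate 1 or any 1 control made it 2, and with at least 10 counts required in every library it was 0. H2-Ab1 had 6.96 ± 1.36 CPM in Mfp2-/- and 1.08 ± 0.392 CPM in control retinas (2.61, adjusted p = 0.000413), and H2-DMa had 6.54 ± 1.02 CPM in Mfp2-/- and 3.82 ± 1.48 CPM in control retinas (0.79, adjusted p = 0.0996). With 12 counts summed over control libraries, H2-Ab1 passed the filter through the Mfp2-/- libraries, so the filter itself favoured a rise. Of those not tested, named after their values were seen, H2-Eb1 had 52 counts in Mfp2-/- and 8 in control libraries, H2-Aa 21 in Mfp2-/- and 4 in control libraries, and Cd74, the invariant chain, 19 in Mfp2-/- and 7 in control libraries.

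Markers of cell types were read beside these results, and not all lists moved in the same direction. Of all genes tested, 13.8% were called higher and 13.2% lower by edgeR. Of 19 microglia markers, 11 were tested, with a median of 2.68 on the log2 scale. By each of edgeR, DESeq2 and limma-voom, after the same filter, 11 rose and 0 fell, as also at an unadjusted p under 0.05. Several of them, such as Trem2 (9 counts summed over control libraries) and Aif1 (16), passed the filter through the Mfp2-/- libraries. For these the filter itself favoured a rise. With at least 10 counts required in every library, 5 were tested and 5 rose. Without Mfp2-/- replicates 2 and 3, 15 were tested, 14 rose and 0 fell, and the median was 2.44. The markers added there also passed the filter through the Mfp2-/- libraries, so the larger count is no check on the rise. Fcrls, for example, had 17 and 15 counts in Mfp2-/- replicates 1 and 4, and 6 summed over control libraries. The sum of the 19 markers was 324 to 433 CPM in Mfp2-/- libraries, against 60.0 to 76.3 CPM in control libraries, and 0 of the 19 were at 0 in every library. Laptm5, C1qa, Csf1r and C1qc, genes of microglia and macrophages, rose by 2.94, 2.69, 2.01 and 3.09 on the log2 scale (adjusted p between 1.57e-06 and 5.88e-05). Ctss, at 2.81, and Ctsc, at 2.11, were within the range of the tested markers. The other 8 members were below the lowest of them, Tmem119, at 1.52. This lower end depends on the filter. Of the markers not tested, named after their values were seen, Gpr34 had 20 counts in Mfp2-/- and 11 in control libraries. Siglech had 32 in Mfp2-/- and 14 in control libraries, whereas Ptprc had 77 in Mfp2-/- and 14 in control libraries. The part of microglia in the cathepsin changes was not tested, and in bulk retinas more cells of a type and more RNA per cell cannot be told apart. Inner retinal neuron markers had a median of 0.47 on the log2 scale, with 9 higher and 0 lower of 17 tested. With TMM factors computed without the rod and cone markers, the median log2 fold change was 0.87 over the cathepsins and -0.0057 over all genes. How far the fall in rod transcripts otherwise moved the CPM values of other genes was not tested.

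Of 15 Müller glia markers, 10 rose and 0 fell by edgeR, DESeq2 and limma-voom, beside 13.8% and 13.2% of all genes by edgeR. At an unadjusted p under 0.05 there were 10 and 1, and the median log2 fold change of the markers was 0.91. Without Mfp2-/- replicates 2 and 3 the counts were 10 and 1, with Glul lower, and the median was 0.77. Their sum was 5719 to 7432 CPM in Mfp2-/- libraries, against 4385 to 5046 CPM in control libraries, and was highest in Mfp2-/- replicates 2 and 3. These sums are apart only with Apoe included, at 1679 ± 242 CPM in Mfp2-/- and 603 ± 81.9 CPM in control retinas. Of the markers that did not pass, Glul (-0.52), Abca8a (-0.04) and Rlbp1 (-0.01) were lower on the log2 scale, and Aqp4 (0.13) and Car14 (0.55) higher. The 12 RPE markers, of which 10 were tested, gave 1 gene higher and 0 lower, with 4 and 1 at an unadjusted p under 0.05, 2 and 1 by DESeq2 and 2 and 0 by limma-voom. Their sum, 467 to 805 CPM in Mfp2-/- libraries against 279 to 511 CPM in control libraries, overlapped and was highest in Mfp2-/- replicate 2. Of 10 blood monocyte and neutrophil markers, 1, Mmp9, was tested and rose, at 40.6 ± 10.6 CPM in Mfp2-/- and 18.4 ± 4.72 CPM in control retinas (1.12, adjusted p = 0.00494). The other 9 had 0 to 9 counts each summed over Mfp2-/- libraries and 0 to 2 summed over control libraries, so that the list says little of these cells. The part of these cells in the cathepsin values was not tested.

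**Figure D5:**
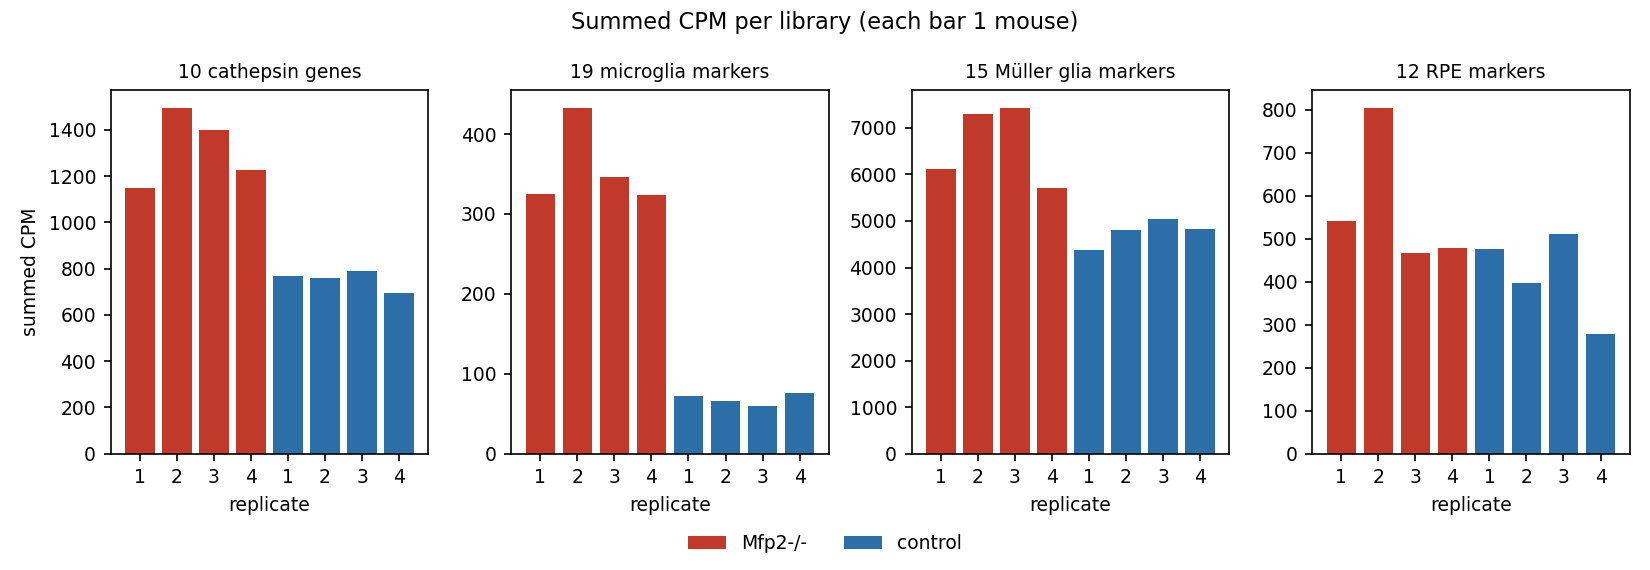
Summed CPM of the 10 cathepsin genes, 19 microglia markers, 15 Müller glia markers and 12 RPE markers in each library, each bar 1 mouse, with Mfp2-/- replicates 1 to 4 (red) left of control replicates 1 to 4 (blue). The first 3 sums are apart between the groups, that of the Müller glia markers only with Apoe included, and that of the RPE markers overlaps. The cathepsins are at 1148 to 1496 CPM in Mfp2-/- and 694 to 791 CPM in control libraries.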

How the data were processed

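RNA of neural retinas (both retinas of 1 mouse per library) was sequenced with the QuantSeq 3′ kit as single-end reads. The authors deposited raw counts of reads per gene symbol, not normalized. Their processing notes name FastQC 0.11.7, HISAT2, SAMtools 1.5, HTSeq and mm10. The sources used here do not state the annotation release, or whether strand or molecular identifiers entered the counts. Reads that HTSeq assigned to no gene were left out of library sizes, at 10.8% to 29.9% of reads.

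Groups came from the sample labels, with the Mfp2+/- mouse among the controls. The test was that of edgeR 4.0.16 under R 4.3.3 (filterByExpr, TMM factors, quasi-likelihood test, Benjamini-Hochberg adjustment over 12516 genes, called at an adjusted p under 0.05). SE was the log2 fold change divided by the square root of F, and intervals were at 95%. CPM used TMM factors, and log2 CPM a prior count of 2. DESeq2 1.42.0, limma-voom (limma 3.58.1), other scalings and filters, a replicate block and libraries left out were alternatives.

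The members and lists were chosen with earlier results of these data known. Named were the members, Hsd17b4, up to 4 tested genes of each companion list with the smallest adjusted p, and the 3 genes nearest to the members of highest CPM. A gene taken by this rule is not reported here. Markers of rods, cones, inner retinal neurons and endothelium served to describe the tissue. By edgeR, the rod list gave 0 higher and 15 lower of 15 tested, the cones 2 and 6 of 9, the inner retinal neurons 9 and 0 of 17, and the endothelial and pericyte list 1 and 1 of 8. Without Mfp2-/- replicates 2 and 3 the inner retinal neurons gave 7 higher and 0 lower, and their median log2 fold change was 0.33, against 0.47 in the full fit. Gene coordinates are those of GENCODE on GRCm38, and promoter windows those of RefSeq. A series-wide copy of the counts was not used.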

Additional observations from a re-analysis of the deposited data

How the results depend on the processing

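In 18 alternatives (other scaling factors, filters, tools, a replicate block and libraries left out), 138 of 139 values stayed near the reported ones for the calls over all genes, over the cathepsins and over the companion lists together, and for the summed cathepsin CPM. The exception among these was the number of cathepsins called lower, which was 0 in the full fit and 1 without Mfp2-/- replicates 2 and 3, where Ctsf passed; that fit has fewer libraries, and the cause was not tested. Leaving out each of the 8 libraries in turn gave 5 to 7 called cathepsins and 2474 to 3524 called genes, against 7 and 3377 in the full fit. The lost calls were those of Ctsa and Ctsz, and no member changed sign under any alternative. Of 576 values for the 32 counts of single lists, 530 stayed within 1.5-fold and 46 did not, mostly in counts of 1 or 2. These include cathepsin inhibitors higher (1, or 2 without filter or without Mfp2-/- replicates 2 and 3), other hydrolases lower (1 or 0), MHC class II genes higher (0 to 2), Müller markers lower (0 or 1) and RPE markers higher (0 to 4). Microglia markers called higher were 11, or 5 with at least 10 counts in every library, where only 5 were tested. Upper-quartile factors and total counts put the median change over all genes at 0.12 on the log2 scale, against -0.0039 with TMM factors, and the share of called genes that were higher to 64.2% and 65.2%, against 51.2%. The median of the members was then 1.00 and 0.99. The replicate numbers did not pair the samples, with correlations of deviations of 0.08, -0.16, 0.25 and 0.21, and not every library correlated best with its own number. With the replicate block 2845 genes and 7 cathepsins were called. The depth limits Ctso and the lists of low genes most, since 1 count was worth 0.323 to 0.508 CPM.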
